A study of Mus musculus with 8 samples.

Results

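The genes described here are the liver's machinery for burning fatty acids: mitochondrial and peroxisomal beta oxidation, omega oxidation, a ketone body enzyme, and other targets of the nuclear receptor PPAR alpha. They were taken as every probe whose gene symbol in the array annotation is on a list of 37 genes, and 34 of those genes have a probe, out of 16593 named genes on the array. The 34 genes are read by 58 probes, of which 48, for 31 genes, were bright enough to be tested. Hadha, Cyp4a10 and Acsl1 have no probe under their symbol in the annotation used and were not analysed here. Cpt1a, Crot and Vnn1 have a probe, but their signals were above background on 0 arrays. The list was drawn up with results of these arrays known.

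Liver RNA was taken from 4 male mice heterozygous for the Jag1K295*/+ allele and from 4 male wild-type mice, all of strain C3HeB/FeJ and 21 weeks old, and each RNA was hybridised to 1 Illumina bead array. The series presents this allele as a model of Alagille syndrome, a disorder of the bile ducts and other organs for which mutations of the Notch ligand gene JAG1 are the usual cause. The sample titles abbreviate the mutant group to "hom", but both the design text and the genotype given for each sample call it heterozygous, which was followed here. Each array comes from a separate mouse. The sources used here do not give the feeding state or the hour at which the livers were taken.

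Fatty acids are burnt after they have been joined to coenzyme A and carried into mitochondria on carnitine, where repeated cycles of dehydrogenation, hydration, a second dehydrogenation and thiolysis cut them into acetyl-CoA. Peroxisomes shorten very long chains first, and the liver turns surplus acetyl-CoA into ketone bodies that other organs burn during fasting. PPAR alpha binds fatty acids and, paired with the receptor RXR, switches on many genes of these routes when food is withdrawn.

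Promoters were set beside the values because many of these genes share PPAR alpha as a regulator, which binds with RXR to a direct repeat with 1 base between the repeated parts, spelled AGGTCANAGGTCA. RefSeq windows of the GRCm38.p6 build, from 250 bases before to 50 bases after the start site, were matched for 30 of the 37 genes, in 32 windows. On either strand, the exact repeat stood in 0 of these 32 windows and in 13 of 32851 windows of all genes (0.0396%). With up to 2 mismatches it stood in 3 of the 32, those of Slc25a20, Etfa and Echs1, and in 1268 of all windows (3.86%). These 3 windows are shown first, with the near match in capitals, at chr9:108661886-108662185 on the plus strand, chr9:55512194-55512493 on the minus strand and chr7:140116372-140116671 on the minus strand. Each is written 5′ to 3′ along the gene, and the near match begins at position 6, -77 and -83 from the start site. The window of Acadl, the gene with the smallest unadjusted p among the members (chr1:66863260-66863559 on the minus strand), and those of Acot1 and Pdk4, which were high in the same mice (chr12:84009252-84009551 on the plus strand and chr6:5496229-5496528 on the minus strand), follow and hold no near match. A match is a likeness of letters, not a shown binding site.
Slc25a20: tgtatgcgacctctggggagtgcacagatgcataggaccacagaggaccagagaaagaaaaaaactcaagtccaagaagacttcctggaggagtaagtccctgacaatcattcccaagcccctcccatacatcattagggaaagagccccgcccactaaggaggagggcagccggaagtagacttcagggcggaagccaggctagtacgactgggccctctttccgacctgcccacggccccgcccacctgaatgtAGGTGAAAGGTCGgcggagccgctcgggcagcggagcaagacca
Etfa: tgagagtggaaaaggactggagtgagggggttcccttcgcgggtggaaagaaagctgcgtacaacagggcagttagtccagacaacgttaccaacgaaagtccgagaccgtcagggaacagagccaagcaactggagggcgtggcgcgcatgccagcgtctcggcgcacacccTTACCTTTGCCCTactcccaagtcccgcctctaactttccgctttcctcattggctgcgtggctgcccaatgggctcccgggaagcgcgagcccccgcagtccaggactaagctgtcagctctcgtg
Echs1: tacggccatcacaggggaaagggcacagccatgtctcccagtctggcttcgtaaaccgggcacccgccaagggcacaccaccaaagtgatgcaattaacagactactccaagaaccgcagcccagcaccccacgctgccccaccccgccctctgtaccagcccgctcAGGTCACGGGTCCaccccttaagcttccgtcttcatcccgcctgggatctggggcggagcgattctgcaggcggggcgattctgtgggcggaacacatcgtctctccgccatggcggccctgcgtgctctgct
Acadl: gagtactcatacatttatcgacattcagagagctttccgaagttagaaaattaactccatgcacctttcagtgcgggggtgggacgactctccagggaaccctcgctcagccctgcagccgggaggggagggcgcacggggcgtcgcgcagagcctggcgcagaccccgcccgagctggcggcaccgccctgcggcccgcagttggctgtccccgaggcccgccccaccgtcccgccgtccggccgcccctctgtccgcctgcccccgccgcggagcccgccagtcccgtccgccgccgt
Acot1: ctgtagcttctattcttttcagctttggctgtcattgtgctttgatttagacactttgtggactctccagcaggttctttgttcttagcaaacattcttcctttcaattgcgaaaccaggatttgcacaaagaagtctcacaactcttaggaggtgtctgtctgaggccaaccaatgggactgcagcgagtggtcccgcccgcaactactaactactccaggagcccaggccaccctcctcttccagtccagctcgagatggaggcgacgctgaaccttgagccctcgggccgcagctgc
Pdk4: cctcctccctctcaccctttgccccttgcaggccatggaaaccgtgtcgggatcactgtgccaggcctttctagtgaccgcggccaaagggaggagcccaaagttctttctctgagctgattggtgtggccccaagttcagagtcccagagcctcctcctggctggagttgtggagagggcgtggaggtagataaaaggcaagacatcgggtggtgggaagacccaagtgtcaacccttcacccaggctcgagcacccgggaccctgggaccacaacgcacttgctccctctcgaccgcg

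The arrays had mean signals of 422 to 488 and 11022 to 11873 probes above background, and the values below are background-corrected, quantile-normalized log2 signals. Heterozygous replicate 4 stood apart from the rest on the first principal component, at 24.3, while the other 7 arrays lay between -12.3 and 6.90. The Jag1 probe was above background on 0 arrays (detection p-values of 0.301 to 0.895), so it checks no label. The summed signal of 8 hepatocyte markers was 65457 to 71167 in heterozygous livers and 65903 to 68690 in wild-type livers. Of these markers Fgb and Tat were above background on 0 arrays, while the remainder were read on at least 1. With 4 mice against 4, the number of arrays limits the precision of every value.

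No gene of fatty acid oxidation passed the test between heterozygous and wild-type liver. The limma fit over 11412 probes called 1 probe (0.00876%) at an adjusted p under 0.05, that of the keratin gene Krt23, and 0 of the 48 member probes. The Krt23 call was lost without background correction, with no detection filter, with the replicate number as a block, and without heterozygous replicate 3 or wild-type replicate 4. Short of the threshold, member probes lay more often on the lower side: 33 of 48 probes had a negative log2 fold change, heterozygous over wild type (68.8%, against 48.1% of all tested probes). With single arrays left out this count ran from 29 (without heterozygous replicate 3) to 35 (without wild-type replicate 1). Their median was -0.09, against 0.01 over all tested probes, and -0.054 without wild-type replicate 2, without background correction or with the filter at 0.01. At an unadjusted p under 0.05, 10 member probes were lower (20.8%, against 5.95% of all tested probes) and 0 were higher (5.26% of all). For 8 probes every heterozygous array lay below every wild-type array (16.7%, against 3.10% of all), and for 0 every one lay above (3.15% of all).

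These 10 probes read 8 genes: Acadl, Acadm, Acaa2, Slc25a20, Acaa1b, Decr2, Bdh1 and Ppara. By gene, any tested probe counted, 8 of 31 (25.8%) were lower at an unadjusted p under 0.05, against 7.27% of 7960 tested genes. Groups failed to overlap on the lower side for 6 genes (19.4%, against 4.02% of all). On the higher side the counts were 0 by unadjusted p (6.65% of all) and 0 by groups apart (4.12% of all). Counting any probe favours genes with more tested probes, and 48 probes read the 31 members while 10758 read all 7960 genes. Acadm, Slc25a20, Decr2 and Bdh1 counted as lower only through a dimmer probe. With 1 probe per gene, the brightest, the counts were smaller: 4 of 31 genes were lower at an unadjusted p under 0.05 (12.9%, against 4.60% of all) and 3 had groups apart (9.68%, against 2.55%). No gene was higher by either measure, where 5.20% and 3.24% of all genes were. On that footing 21 of 31 genes lay below 0 (67.7%, against 45.6% of all), with a median of -0.03 against 0.01. With single arrays left out the count ran from 17 to 23 of 31, while 44.5% to 48.2% of all genes lay below 0. The median of the members then lay between -0.035 and -0.072, with -0.062 without heterozygous replicate 2, -0.069 without wild-type replicate 1 and -0.072 without heterozygous replicate 4. Scaling arrays by their medians instead placed 25 of 31 members and 58.8% of all genes below 0, with medians of -0.11 and -0.03. No p is given for the list as a whole, since it was chosen with results in view.

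**Figure D1:**
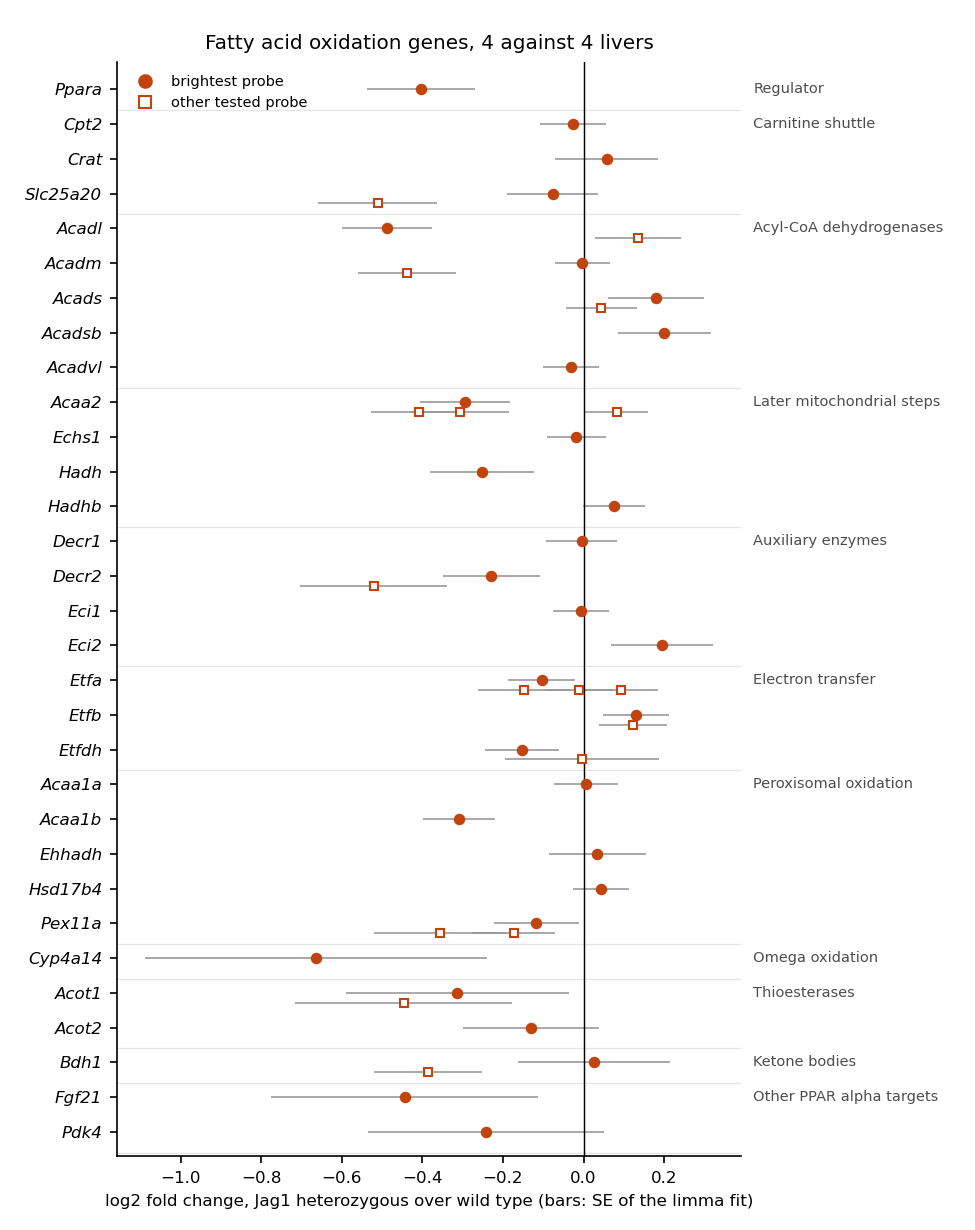
Log2 fold change of each tested probe, Jag1 heterozygous over wild type, for 31 genes ordered by role (filled circles, brightest probe of a gene; open squares, its other tested probes; bars, SE of the limma fit over 4 against 4 livers). Cyp4a14, at -0.66, has the widest bar and was above background on 4 of 8 arrays, and 12 genes carry several probes that often lie apart, as for Acadl at -0.49 and 0.13.

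Heterozygous replicate 4 was the lowest of the 8 arrays for 9 of the 10 lower member probes, and heterozygous replicate 2 for the other. Among all 679 probes lower at an unadjusted p under 0.05, replicate 4 was lowest for 376 (55.4%). Wild-type replicate 2 was the highest array for 7 of the 10. Over all 31 member genes, by brightest probe, heterozygous replicate 3 was lowest for 10 (32.3%, against 15.5% of all genes). Heterozygous replicate 4 was lowest for 8 of the 31 (25.8%, against 15.8% of all genes). With replicate 4 left out the counts were again 10 lower probes and 8 with groups apart, and the median was again -0.09. The shares of all probes in that setting are not given here. Groups come apart more easily for any probe with an array left out, so the equal count of 8 does not show an unchanged excess. The fold changes of these 10 probes were closer to 0 without heterozygous replicate 4, as given below for single genes.

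Among the acyl-CoA dehydrogenases, which open each turn of the mitochondrial cycle for a given chain length, Acadl gave the clearest difference and its own probes disagreed. Acadl encodes the long-chain enzyme. Its brightest probe (ILMN_2689473) read 9.45, 9.03, 9.47 and 9.11 on the heterozygous arrays, against 9.77, 9.83, 9.68 and 9.73 on the wild-type arrays. The groups did not overlap, and heterozygous replicates 2 and 4 were the low ones. Means were 9.26 ± 0.23 in heterozygous and 9.75 ± 0.06 in wild-type liver (SD, n = 4 each), and the log2 fold change of -0.49 ± 0.11 (SE), or 71.3% of the wild-type signal, did not pass (adjusted p = 0.229 by limma). It lay at -0.44 without heterozygous replicate 4, and its adjusted p ran from 0.0855 to 0.536 over 16 alternatives. A dimmer Acadl probe (ILMN_2783519) read 7.80, 7.97, 8.11 and 7.70 in heterozygous and 7.93, 7.77, 7.67 and 7.67 in wild-type liver. There the groups overlapped and the log2 fold change was 0.13 ± 0.11 (SE; adjusted p = 0.666 by limma).

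Acadm, the medium-chain enzyme, split between its probes too. The brightest (ILMN_2810473) read 13.15, 13.06, 13.15 and 13.11 in heterozygous and 13.12, 13.12, 13.11 and 13.14 in wild-type liver, a log2 fold change of -0.003 ± 0.07 (SE; adjusted p = 0.991 by limma). Its groups lay on top of each other. The other probe (ILMN_1256019) read 11.04, 10.81, 11.03 and 10.53 in heterozygous livers, against 11.26, 11.41, 11.34 and 11.14 in wild-type livers. Here the groups did not overlap, and heterozygous replicate 4 was the lowest. The log2 fold change was -0.44 ± 0.12 (SE; adjusted p = 0.296 by limma), or -0.33 without that array.

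The other dehydrogenases of this step showed no such gap. Acadvl, the very-long-chain enzyme, had a log2 fold change of -0.03 ± 0.07 (SE). Acads, the short-chain enzyme, was read by 2 probes at 0.18 ± 0.12 and 0.04 ± 0.09 (SE). Acadsb, which acts on short branched chains, read 10.22, 10.54, 10.57 and 10.16 in heterozygous and 10.01, 10.24, 10.13 and 10.30 in wild-type liver. Its groups overlapped, and its log2 fold change of 0.20 ± 0.12 (SE; adjusted p = 0.548 by limma) was the highest among the 31 brightest probes.

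The later steps of the mitochondrial cycle gave 3 thiolase probes with groups apart, and smaller differences elsewhere. Acaa2 encodes the mitochondrial thiolase that releases acetyl-CoA, and 4 of its probes were tested. The brightest (ILMN_2704822) read 12.36, 12.10, 12.36 and 11.89 in heterozygous livers, against 12.48, 12.49, 12.53 and 12.39 in wild-type livers. Every heterozygous value lay below every wild-type value, with replicate 4 lowest and replicate 2 next. The log2 fold change was -0.29 ± 0.11 (SE; adjusted p = 0.393 by limma). A pair of further probes gave -0.31 ± 0.12 (ILMN_2704823; adjusted p = 0.409 by limma) and -0.41 ± 0.12 (ILMN_2704826; adjusted p = 0.309 by limma), again with groups that did not overlap. Without heterozygous replicate 4 these 3 values were -0.20, -0.19 and -0.31. The fourth probe (ILMN_2788984) read 11.68, 11.66, 11.82 and 11.63 in heterozygous and 11.70, 11.54, 11.62 and 11.59 in wild-type liver, with overlapping groups and a log2 fold change of 0.08 ± 0.08 (SE).

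Hadh, the short-chain hydroxyacyl-CoA dehydrogenase, read 6.40, 6.28, 6.67 and 6.04 in heterozygous and 6.51, 6.53, 6.78 and 6.58 in wild-type liver. One heterozygous array lay above part of the wild-type group, and replicate 4 was lowest. The log2 fold change was -0.25 ± 0.13 (SE; adjusted p = 0.490 by limma), -0.15 without replicate 4 and -0.11 without background correction. Echs1, the short-chain enoyl-CoA hydratase whose promoter is shown above, stood at -0.02 ± 0.07 (SE). Hadhb, the thiolase subunit of the trifunctional protein, stood at 0.08 ± 0.08 (SE).

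**Figure D2:**
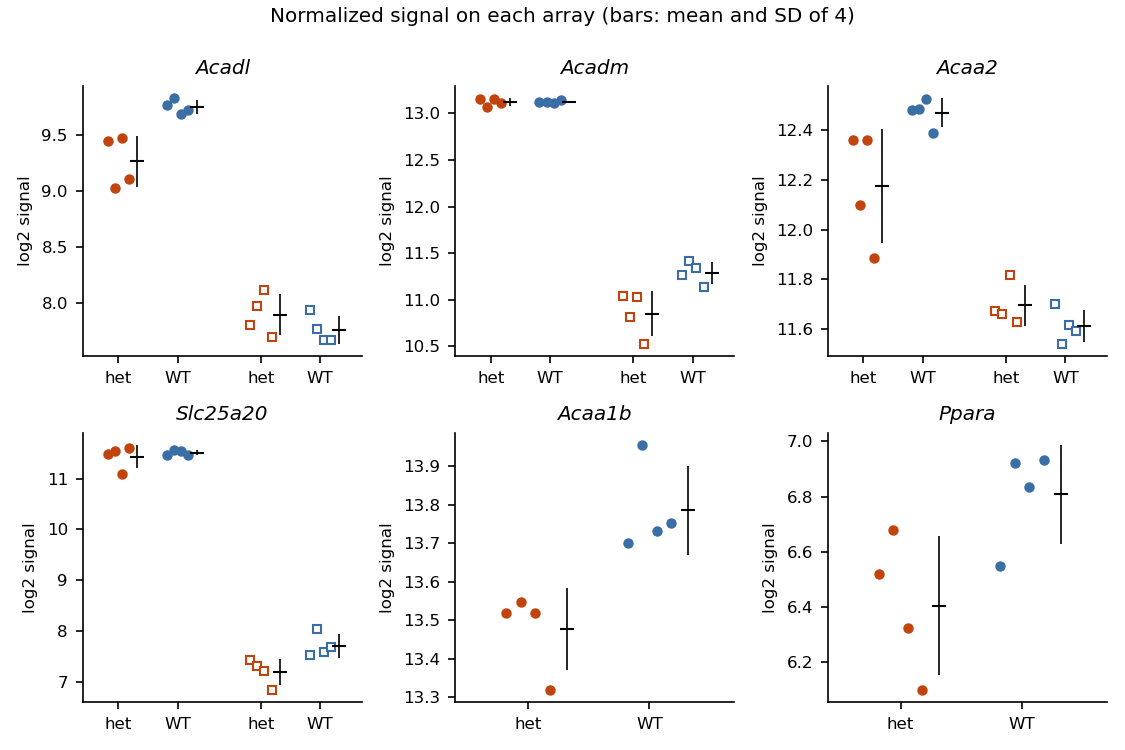
Normalized log2 signal on each array for 6 genes, heterozygous (het, orange) left of wild type (WT, blue), with the mean and SD of 4 arrays beside each group. Filled circles are the brightest probe and open squares, where drawn, another tested probe of the gene: Acadl and Acaa2 are apart on the brightest probe and overlap on the other, and Acadm and Slc25a20 show the reverse.

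The carnitine shuttle repeated this split. Slc25a20 encodes the carrier that exchanges acylcarnitine for carnitine across the inner mitochondrial membrane. Its brightest probe (ILMN_3138499) read 11.49, 11.54, 11.09 and 11.61 in heterozygous and 11.46, 11.57, 11.54 and 11.47 in wild-type liver, with overlapping groups and a log2 fold change of -0.08 ± 0.11 (SE). Heterozygous replicate 3 alone was low on it. A dimmer probe (ILMN_3061070) read 7.43, 7.30, 7.20 and 6.83 in heterozygous livers, against 7.53, 8.04, 7.58 and 7.67 in wild-type livers. On this probe the groups did not overlap, and the log2 fold change was -0.51 ± 0.15 (SE; adjusted p = 0.309 by limma), or -0.39 without heterozygous replicate 4. Cpt2, which returns acyl groups from carnitine to coenzyme A inside the mitochondrion, stood at -0.03 ± 0.08 (SE). Crat, the carnitine acetyltransferase, stood at 0.06 ± 0.13 (SE). Cpt1a, the entry enzyme of the shuttle, and Crot, its peroxisomal counterpart for medium chains, were above background on 0 arrays, so neither has a fold.

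Of the 12 genes with several tested probes, 4 had a probe whose fold change had the opposite sign to that of the brightest: Acadl, Acaa2, Bdh1 and Etfa. That is 4 of 17 probe pairs, where 40.6% of 2798 such pairs over all genes had opposite signs. The difference between the probes of a pair, taken within each array, did not overlap between the genotypes for 3 pairs, against 7.76% of all pairs: 2 on the higher side (3.00% of all) and 1 on the lower (4.75% of all). Heterozygous minus wild type, the dimmer probe less the brightest gave 0.62 in Acadl, 0.38 in Acaa2 (ILMN_2788984) and -0.44 in Acadm. An exact permutation test over the 70 assignments, two-sided, gave p = 0.0286 for each of these 3 pairs, the smallest it can give, and 0.162 after adjustment over the 17 pairs. Where in the transcripts these probes lie was not analysed here, and transcript forms were not tested.

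The electron transfer flavoprotein passes electrons from the acyl-CoA dehydrogenases to the respiratory chain, and its genes gave small differences in both directions. Etfa, its alpha subunit, was read by 4 probes at -0.10 ± 0.08, -0.01 ± 0.08, -0.15 ± 0.11 and 0.09 ± 0.09 (log2 fold change and SE). The brightest (ILMN_2649966) read 13.66, 13.52, 13.68 and 13.53 in heterozygous and 13.78, 13.68, 13.78 and 13.57 in wild-type liver. The probe on the higher side (ILMN_2800655) read 12.06, 12.09, 12.30 and 12.18 in heterozygous and 11.99, 11.93, 12.15 and 12.19 in wild-type liver. The groups overlapped on all 4 probes. Etfb, the beta subunit, lay at 0.13 ± 0.08 and 0.12 ± 0.08 (SE) on its 2 probes. Etfdh, the membrane oxidoreductase that takes the electrons over, read 11.62, 11.43, 11.63 and 11.35 in heterozygous and 11.73, 11.62, 11.74 and 11.54 in wild-type liver. These groups overlapped, with a log2 fold change of -0.15 ± 0.09 (SE; adjusted p = 0.571 by limma), or -0.097 without heterozygous replicate 4, and a dim probe detected on 6 of 8 arrays gave -0.004 ± 0.19 (SE).

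Unsaturated fatty acids need auxiliary enzymes to move or reduce their double bonds, and among these only Decr2 gave a group difference without overlap. Decr2 encodes the peroxisomal dienoyl-CoA reductase. Its dimmer probe (ILMN_2705849) read 6.74, 6.66, 6.74 and 5.96 in heterozygous livers, against 7.03, 7.35, 6.76 and 7.04 in wild-type livers. The groups were apart by a narrow margin, and heterozygous replicate 4 lay well below its group. The log2 fold change was -0.52 ± 0.18 (SE; adjusted p = 0.368 by limma), -0.33 without that array and -0.26 without background correction. The brightest probe (ILMN_2705848) read 7.56, 7.49, 7.34 and 7.08 in heterozygous and 7.52, 7.79, 7.42 and 7.64 in wild-type liver, overlapping, at -0.23 ± 0.12 (SE; adjusted p = 0.506 by limma) and at -0.13 without heterozygous replicate 4. Decr1, the mitochondrial reductase, stood at -0.004 ± 0.09 (SE). The enoyl-CoA isomerases Eci1 and Eci2 stood at -0.01 ± 0.07 and 0.19 ± 0.13 (SE).

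In peroxisomes, the thiolase gene Acaa1b had groups apart on its single probe, while its close relative Acaa1a lay near 0. Acaa1b read 13.52, 13.55, 13.52 and 13.32 in heterozygous livers, against 13.70, 13.96, 13.73 and 13.75 in wild-type livers. No heterozygous array reached the wild-type range, replicate 4 was the lowest and wild-type replicate 2 the highest. Means were 13.48 ± 0.11 in heterozygous and 13.79 ± 0.12 in wild-type liver (SD, n = 4 each), a log2 fold change of -0.31 ± 0.09 (SE; adjusted p = 0.309 by limma), or -0.26 without heterozygous replicate 4. Acaa1a stood at 0.01 ± 0.08 (SE). The 2 genes are near-identical paralogs, and whether each probe reads its own gene alone was not tested. Ehhadh, the bifunctional hydratase and dehydrogenase, stood at 0.03 ± 0.12 and Hsd17b4, its counterpart for branched chains and bile acid precursors, at 0.04 ± 0.07 (SE). Pex11a, a membrane protein of peroxisome division, was read by 3 probes at -0.12 ± 0.11, -0.17 ± 0.10 and -0.36 ± 0.16 (SE), all overlapping between the groups.

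Ppara itself, the receptor that drives many of these genes, had a lower mean in heterozygous liver without passing the test. It read 6.52, 6.68, 6.32 and 6.10 in heterozygous and 6.55, 6.92, 6.84 and 6.93 in wild-type liver. Heterozygous replicate 2 lay above wild-type replicate 1, so the groups overlapped. Means were 6.41 ± 0.25 in heterozygous and 6.81 ± 0.18 in wild-type liver (SD, n = 4 each), and the log2 fold change was -0.40 ± 0.13 (SE; adjusted p = 0.354 by limma), or -0.30 without heterozygous replicate 4. The single probe sits at a low signal, where the value depends on the background step: it was -0.19 without background correction.

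Genes known to respond strongly to PPAR alpha in liver varied between mice within both genotypes. Acot1 encodes a cytosolic thioesterase that splits long-chain acyl-CoA, and its brightest probe read 9.57, 9.65, 9.03 and 10.27 in heterozygous and 10.36, 10.37, 9.44 and 9.61 in wild-type liver. Heterozygous replicate 4 and wild-type replicates 1 and 2 were thus high and the remaining mice low. Its log2 fold change was -0.31 ± 0.28 (SE; adjusted p = 0.704 by limma), and the other probe, which read 6.69, 6.75, 6.18 and 7.30 in heterozygous and 7.58, 7.66, 6.79 and 6.68 in wild-type liver, gave -0.45 ± 0.27 (SE; adjusted p = 0.566 by limma). Leaving out single arrays moved the brightest probe between -0.52 (without heterozygous replicate 4) and -0.11 (without heterozygous replicate 3).

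Cyp4a14, an omega hydroxylase of fatty acids, was high in the same 3 mice. It read 4.65, 4.77, 4.60 and 5.85 in heterozygous and 6.37, 6.44, 4.54 and 5.18 in wild-type liver. It was above background on 1 of 4 heterozygous and 3 of 4 wild-type arrays, and values on the rest have no order. The fitted log2 fold change of -0.66 ± 0.42 (SE; adjusted p = 0.587 by limma) therefore sets measured values against values at background, and its size has no firm meaning. It lay between -1.02 and -0.39 with single arrays left out and at -0.22 without background correction.

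Pdk4, the kinase that shuts off pyruvate oxidation when fat is burnt, read 6.35, 6.32, 5.80 and 6.88 in heterozygous and 6.69, 7.37, 6.30 and 5.95 in wild-type liver. Its 3 highest values came from those same mice. The log2 fold change was -0.24 ± 0.29 (SE; adjusted p = 0.786 by limma), and 0.02 without wild-type replicate 2. Since the 8 values of Acot1 and of Cyp4a14 formed 3 high and 5 lower mice of both genotypes, no correlation over all mice is given, and neither set is large enough for its own.

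Other targets did not share that order. Fgf21, a fasting hormone of the liver, read 6.48, 8.08, 6.46 and 6.83 in heterozygous and 7.20, 7.98, 7.15 and 7.30 in wild-type liver, and was highest in heterozygous replicate 2 and wild-type replicate 2. Its log2 fold change was -0.44 ± 0.33 (SE; adjusted p = 0.640 by limma), but -0.82 without heterozygous replicate 2 and -0.25 without wild-type replicate 2. Ehhadh was highest in heterozygous replicate 3. Acot2, the mitochondrial thioesterase next in kind to Acot1, read 5.68, 5.68, 4.92 and 5.74 in heterozygous and 5.62, 5.46, 5.74 and 5.72 in wild-type liver. Only heterozygous replicate 3 was low, and the log2 fold change was -0.13 ± 0.17 (SE). Vnn1, a pantetheinase, was above background on 0 arrays.

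**Figure D3:**
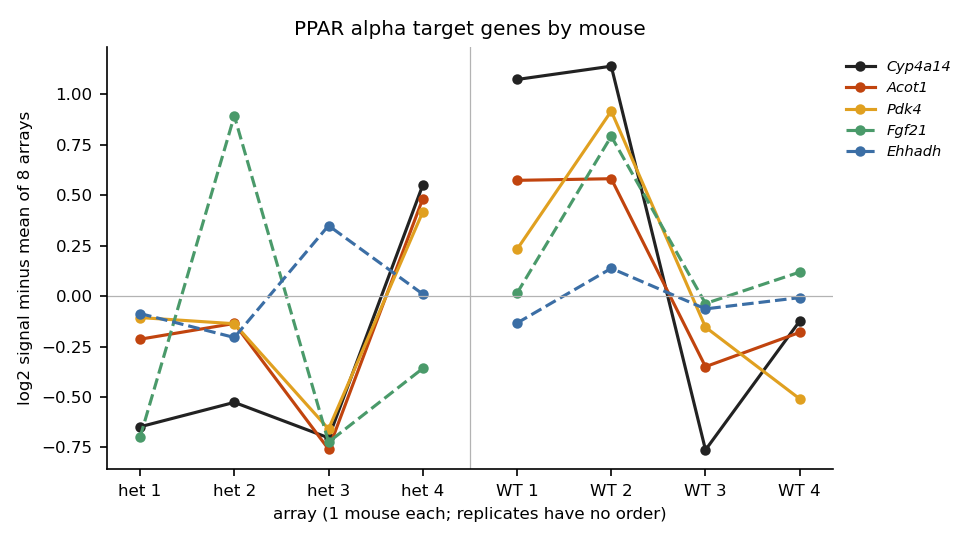
Log2 signal of 5 PPAR alpha targets on each array minus the mean of the 8 arrays, heterozygous mice (het) left of wild type (WT). Acot1, Cyp4a14 and Pdk4 (solid lines) are high in heterozygous replicate 4 and wild-type replicates 1 and 2, whereas Fgf21 and Ehhadh (dashed lines) follow other mice; lines only join the points of a gene, and Cyp4a14 was above background on 4 arrays.

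Ketone body formation was covered by Bdh1, the mitochondrial enzyme that reduces acetoacetate to beta-hydroxybutyrate. The brightest probe (ILMN_1231553) read 11.17, 11.22, 10.41 and 11.03 in heterozygous and 10.64, 10.98, 10.81 and 11.29 in wild-type liver, a log2 fold change of 0.03 ± 0.19 (SE) whose sign turned under median scaling (-0.035). The other (ILMN_2708928) read 7.83, 7.77, 7.80 and 7.60 in heterozygous and 8.05, 8.44, 7.77 and 8.28 in wild-type liver. Wild-type replicate 3 lay inside the heterozygous range there, and the log2 fold change was -0.39 ± 0.14 (SE; adjusted p = 0.363 by limma), or -0.33 without heterozygous replicate 4.

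A list of further oxidation and PPAR alpha genes, which also holds genes of amino acid breakdown such as Acad8, was read in the same way. Of 45 such genes on the array 43 were tested, 0 passed in either direction (0.0126% of all genes passed), 31 lay below 0 (72.1%) and the median log2 fold change was -0.05. At an unadjusted p under 0.05, 4 were lower (9.30%, against 4.60% of all genes) and 0 higher (5.20% of all). Groups were apart on the lower side for 2 of them (4.65%, against 2.55% of all genes) and on the higher side for 0 (3.24% of all). The count of 2 became 5 without heterozygous replicate 2, and 4 without wild-type replicate 1 or wild-type replicate 3. With an array left out, groups come apart more easily for any gene. The shares of all genes in those settings are not given here, so the higher counts are not a result about this list. Acad8, the isobutyryl-CoA dehydrogenase of valine breakdown, read 8.39, 8.28, 8.51 and 7.99 in heterozygous and 8.78, 8.77, 8.73 and 8.66 in wild-type liver, a log2 fold change of -0.44 ± 0.11 (SE; adjusted p = 0.253 by limma), and its other tested probe stood at -0.27. Aldh3a2, which oxidises fatty aldehydes, read 11.39, 11.40, 11.43 and 11.28 in heterozygous and 11.51, 11.68, 11.57 and 11.55 in wild-type liver, at -0.20 ± 0.08 (SE; adjusted p = 0.385 by limma). Heterozygous replicate 4 was the lowest array for both.

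Genes of fat synthesis lay below 0 too. Of 22 lipogenesis genes, 18 lay below 0 (81.8%), against 45.6% of all genes, with a median of -0.12 and 0 past the threshold. Without heterozygous replicate 4 these were 15 genes and -0.083. Pklr, the liver pyruvate kinase, stood at -0.48 ± 0.18 on its brightest probe (SE; adjusted p = 0.378 by limma) and at -0.41 on its other. Pnpla5, a lipase family member counted among these 18, stood at -0.57 ± 0.21 (SE; adjusted p = 0.378 by limma). It was above background on 4 of 8 arrays, so the size of that fold change has no firm meaning. Of 78 tested oxidative phosphorylation genes, 48 lay below 0 (61.5%), with a median of -0.03 and 0 past the threshold. Single arrays left out moved the count between 40 and 53 and the median between -0.00056 (without heterozygous replicate 3) and -0.045 (without heterozygous replicate 1). Groups were apart for 5 of these genes on the higher and 3 on the lower side (6.41% and 3.85%, against 3.24% and 2.55% of all genes). There Ndufb4, a complex I subunit, stood at 0.36 ± 0.11 and Sdhd, a complex II subunit, at 0.29 ± 0.09 (SE; adjusted p = 0.309 and 0.321 by limma).

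**Figure D4:**
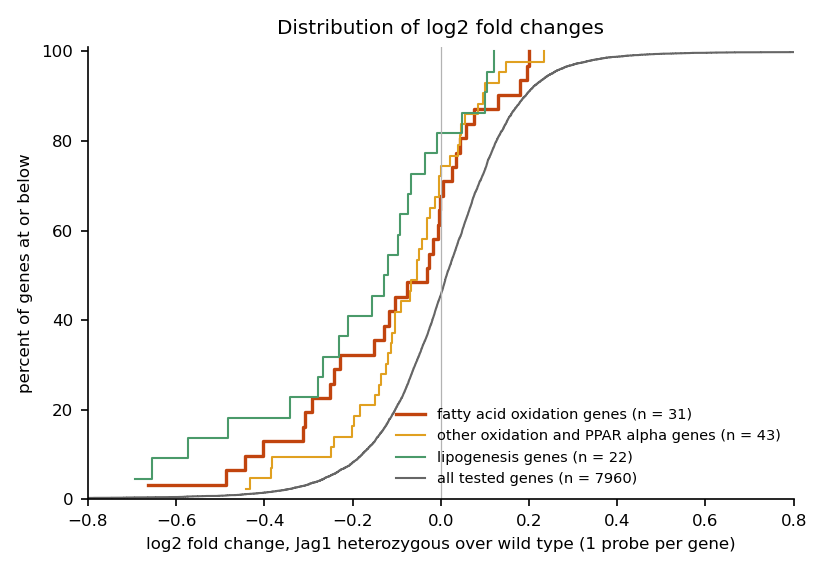
Cumulative share of genes, in percent, at or below each log2 fold change (Jag1 heterozygous over wild type, 1 probe per gene) for the fatty acid oxidation genes, other oxidation and PPAR alpha genes, lipogenesis genes and all 7960 tested genes. All 3 gene lists lie left of the curve of all genes, with medians of -0.03, -0.05 and -0.12 against 0.01.

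Markers of other cells were set beside these results. The summed signal of 9 Kupffer cell and macrophage markers was 1361 to 1971 in heterozygous and 1723 to 2303 in wild-type liver, with 7 of 8 tested markers below 0 and Cd5l above background on 0 arrays. Bile duct markers summed to 169 to 195 in heterozygous and 228 to 309 in wild-type liver, a set of 5 that holds Krt23 and in which Krt19 and Sox9 were above background on 0 arrays. Of the 3 tested, Krt23 stood at -1.36 ± 0.13 (SE; adjusted p = 0.0104 by limma), Krt7 at -0.03 ± 0.14 and Cldn7 at 0.12 ± 0.16 (SE). The sum without Krt23 is not given here, so the gap is not shown for the set as a whole. The 8 endothelial markers summed to 3798 to 4347 in heterozygous and 3975 to 4451 in wild-type liver, and the 8 stellate cell markers to 2998 to 3212 in heterozygous and 2872 to 3945 in wild-type liver. Red cell markers, 3 in number, summed to 7516 to 8917 in heterozygous and 8312 to 12885 in wild-type liver. Below 0 lay 6 of 8 tested endothelial, 5 of 6 stellate cell and 3 of 3 red cell markers, where 45.6% of all genes did. The same held for 2 of 5 hepatocyte, 2 of 3 bile duct and 1 of 3 pancreatic acinar markers. Of 6 fat markers 5 were above background on 0 arrays, Adipoq, Fabp4 and Plin1 among them, and Lep on 2. Of 7 skeletal muscle markers 5 were above background on 0 arrays, Acta1, Ckm and Mb among them, Mylpf on 1 and Myl1 on 2. The muscle sum was 152 to 162 in heterozygous and 161 to 216 in wild-type liver, highest in wild-type replicate 1. Of 6 lymphocyte markers 5 were above background on 0 arrays and Cd79b on 2. The 5 pancreatic acinar markers, of which Cela1 and Amy2a5 were above background on all 8 arrays and Cpa1 on 0, summed to 2024 to 2166 in heterozygous and 1922 to 2143 in wild-type liver. The part of these markers, and of heterozygous replicate 4, in the values of the oxidation genes was not tested. In whole liver, fewer cells of a type and less RNA per cell cannot be told apart.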

How the data were processed

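Total RNA from 8 livers was labelled with biotin and read on 1 Illumina bead array per mouse. Per the file headers, the deposited table gives each of 25697 probes a non-normalized signal intensity and a detection p-value, made with GenomeStudio 2011.1 per the submitters' processing notes. A second deposited table of processed intensity values served as an alternative; its normalization is not given in the sources used here.

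From the deposited intensity values, background was corrected with nec of limma 3.58.1 (R 4.3.3) from the detection p-values, with an offset of 16, followed by quantile normalization and log2. The 11412 probes with a detection p-value under 0.05 on at least 4 of 8 arrays were tested, 10758 of them named, for 7960 genes. Symbols came from the platform annotation, which named 23978 probes with 1 symbol, 0 with several and 1719 with none. limma's lmFit and eBayes compared the 4 heterozygous with the 4 wild-type arrays, two-sided, with Benjamini-Hochberg adjustment over all tested probes and a threshold of 0.05; this fit gives the adjusted p-values, while single values were compared by exact permutation (Python 3.11.15). For a gene, the brightest tested probe stood, and other tested probes of members are given beside it. The steps were tested on simulated data. A correlation of Cyp4a14 with other PPAR alpha targets was planned and is not given, because the values of Cyp4a14 and of Acot1 formed separate sets of mice. No protein sequences were used here.

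The members and lists were chosen with earlier results of these data known. Genes given in full are members with groups apart, then those of smallest unadjusted p to make 8, and those whose probes differ in sign; Acadm, Slc25a20, Acot1, Acot2, Cyp4a14, Pdk4 and Fgf21 were added after their values were seen. From the list of other oxidation genes those with groups apart are named, and from each further list at most the 2 with the smallest unadjusted p, with Krt7 added among bile duct markers. The labels give replicate numbers but pair no mice: deviations of same-numbered arrays from their group means correlated at -0.07, 0.13, 0.10 and 0.08. Alternatives were the processed table, median scaling, leaving out each array, a replicate block, omitted background correction, a trended robust prior, an offset of 50, no detection filter or one at 0.01 in every array, and the mean of a gene's probes.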

Additional observations from a re-analysis of the deposited data

Results flagged for a closer look

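In 6 of 96 sets of 4 arrays (48 member probes in 2 genotypes), 1 array stood far from the other 3 by Dixon's test, where chance gives about 1 in 20, or about 5. Among heterozygous livers, replicate 4 was low for the peroxisomal thiolase Acaa1b, at 13.32 with the others at 13.52 to 13.55, and for the dimmer probe of the peroxisomal reductase Decr2, at 5.96 with the others at 6.66 to 6.74. The same replicate was high for the omega hydroxylase Cyp4a14, at 5.85 with the others at 4.60 to 4.77, none of these others detected above background. Heterozygous replicate 3 was low for the thioesterase Acot2, at 4.92 with the others at 5.68 to 5.74, and heterozygous replicate 2 was high for Pex11a, at 8.57 with the others at 8.23 to 8.25. In wild-type liver, replicate 3 was high for a probe of the mitochondrial thiolase Acaa2, at 12.34 with the others at 12.23 to 12.24.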

How the results depend on the processing

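The 30 probes of the genes given in full were refitted under up to 16 alternatives, 477 comparisons in all; 459 kept their direction, 18 turned, and 0 passed the threshold in any. Acadl's brightest probe, Acaa1b and Ppara kept their direction in all 16. With single arrays left out, the values that turned ran from -0.14 to 0.038 for Slc25a20's brightest probe and from -0.21 to 0.063 for Acot2 (both positive without heterozygous replicate 3), from -0.45 to 0.023 for Pdk4 (positive without wild-type replicate 2), and from -0.013 to 0.017 for Acadm's brightest probe. They ran from -0.069 to 0.21 for Bdh1's brightest probe, from -0.067 to 0.033 for an Etfa probe and from -0.14 to 0.15 for the dim Etfdh probe. Acadm's brightest probe lay at 0.013 in the processed table and Bdh1's at -0.035 under median scaling. Over all tested probes, limma called 0 without background correction, 0 with no detection filter, 0 with the replicate block, and 0 to 7 with single arrays left out (7 without heterozygous replicate 1, 2 without heterozygous replicate 2, and 0 without heterozygous replicate 3 or wild-type replicate 4), against 1. Member probes higher at an unadjusted p under 0.05 numbered 0 to 1 with single arrays left out. Members with groups apart, by brightest probe, numbered 3 to 6 (6 without heterozygous replicate 2), and other oxidation genes 2 to 5 (5 without heterozygous replicate 2, 4 without wild-type replicate 1 or 3), or 4 under median scaling. The shares of all genes with groups apart in these settings are not given here. Leaving out an array makes groups come apart more easily for any gene, so these counts cannot be set against the shares from all arrays. Median scaling moved the median to -0.11 for the members, -0.11 for the other oxidation genes and -0.089 for oxidative phosphorylation, while all genes moved to -0.03. With the replicate block 13 member probes were lower at an unadjusted p under 0.05, against 10, and 6 genes by brightest probe, against 4. The shares of all probes and genes under the block are not given here, so whether this rise is particular to the members was not tested. Beyond the lost Krt23 call the block changed no call. By deviations from the group means, 4 of 8 arrays correlated best with their own number. A slide block was not run, since no slide is named. A dim probe is limited by its signal over background: without background correction the dimmer Slc25a20 probe lay at -0.32 and the dimmer Acot1 probe at -0.25, Fgf21 at -0.23 and Pdk4 at -0.12.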
